A study of Mus musculus with 9 samples.

Results

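The cadherin and protocadherin genes measured here were all gene spots of the array whose name was Cdh followed by a number, or began with Pcdh, in mouse retinal organoids. They came to 71 genes on 126 probes, and 58 of them had a probe whose signal cleared background on 3 or more of the 9 arrays. These 58 stood among 23594 genes that passed the same filter. By class, 15 of 18 classical cadherins passed (5 of 5 of type I and 10 of 13 of type II), 4 of 5 other cadherins, 11 of 12 non-clustered protocadherins and 28 of 36 clustered protocadherins (5 of 7 of the alpha cluster, 19 of 22 of the beta cluster and 4 of 7 of the gamma cluster). The organoids, aggregates that form retinal tissue in suspension, came from mouse ES or iPS cells, with 5 organoids pooled in each sample. The study asked how the expression of organoids engineered to hold fewer bipolar cells compared with that of the parental kind. There were 3 lines: a wild type (WT, also labelled NCT), a knockout of Bhlhb4 (B4KO, a gene now named Bhlhe23) and a knockout of Islet-1 (Isl1KO). Sampling took place 10, 16 and 23 days into differentiation (DD10, DD16 and DD23), with 1 array for each line and day and no replicate. The labels do not say how many clones stand behind a line.

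Cadherins are calcium-dependent adhesion proteins of the cell surface. Classical cadherins bind the same kind of molecule on the next cell and hold on to the actin skeleton through catenins, and the set of cadherins on a neural cell helps to sort it into its tissue layer. Clustered protocadherins come from 3 neighbouring gene arrays, alpha, beta and gamma, from which each neuron draws its own combination. In the alpha and gamma arrays a variable exon is spliced to constant exons that all members of the array share, whereas each beta gene is a single exon. This surface code lets the branches of a neuron tell themselves from those of others, as in the starburst amacrine cells of the retina.

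How a probe tells close relatives apart bears on each value below, so a few probe sequences are given first, 5′ to 3′ on the transcript strand, as the scanner files list them with positions in build mm9. The tails of type II cadherins are conserved, and a probe in that tail is shown for Cdh6 (chromosome 15, 12963981-12964040, minus strand), Cdh9 (chromosome 15, 16785915-16785974, plus strand) and Cdh10 (chromosome 15, 18943342-18943401, plus strand). Capitals in the Cdh6 and Cdh9 lines mark the bases at which these probes differ, and capitals in the Cdh10 line mark where it differs from Cdh6 over their shared stretch.
Cdh6: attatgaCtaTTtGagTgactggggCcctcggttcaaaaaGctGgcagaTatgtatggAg
Cdh9: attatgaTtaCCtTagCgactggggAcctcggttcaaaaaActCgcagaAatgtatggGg
Cdh10: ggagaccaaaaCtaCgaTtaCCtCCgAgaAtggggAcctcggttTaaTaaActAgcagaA
The Cdh6 and Cdh9 probes were equal at 50 of 60 bases, with no equal run longer than 14 bases, and Cdh6 and Cdh10 at 35 of 50. No probe of the 126 shared a run of 25 bases with a probe of another gene. That check compared probes with probes and not with transcripts, so it cannot show which transcripts a probe binds. The probes named Pcdhac2 and Pcdhga9, each listed for 4 genes, passed it too. The probe of Cdh11 (chromosome 8, 105191906-105191965, minus strand) and a probe of Cdh4 (chromosome 2, 179581965-179582024, plus strand) lie over a calcium-binding turn of a cadherin repeat, whose codons follow the letters GANNNNAANGANAAN, in capitals (N is any base, so other residues can match too).
Cdh11: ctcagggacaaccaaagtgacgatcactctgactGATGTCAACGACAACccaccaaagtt
Cdh4: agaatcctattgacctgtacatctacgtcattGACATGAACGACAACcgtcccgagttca
These letters stood in 3 of the 126 member probes (2.38%) and in 0.334% of all 56605 gene probes on the transcript strand, and in 1.59% and 0.203% on the opposite strand. The last pair of probes reads different parts of Pcdh15 (chromosome 10, plus strand, 74105072-74105131 and 73969284-73969343), and capitals mark a stop codon that closes an open frame of the probe. Another frame of that probe had no stop, so which frame is read was not shown.
Pcdh15 distal: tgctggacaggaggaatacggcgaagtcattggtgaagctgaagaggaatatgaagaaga
Pcdh15 proximal: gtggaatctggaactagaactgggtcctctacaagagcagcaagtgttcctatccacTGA

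Levels are log2 processed intensity over the 75th percentile of the gene spots of the same array, so that 0 is the level of that percentile. A level compares arrays for 1 probe and does not rank genes. The 75th percentile lay between 897 and 1138 intensity units, and 57.3% to 67.8% of gene spots were well above background. The Isl1 level was -0.60 in WT and -1.24 in Isl1KO at DD10, 1.45 and -0.44 at DD16, and -0.05 and -1.63 at DD23. The Bhlhe23 level in B4KO was -3.41 at DD10, near the -3.20 of WT, and at DD16 and DD23 it was not well above background there, against -2.82 and -4.55 in WT. Isl1KO was low as well, with a Bhlhe23 level of -4.55 at DD16 and a signal not well above background at DD23. Where these probes lie relative to the engineered changes was not given in the sources used here. Day was tested with limma over all 9 arrays with line as the other term, so the spread is the departure of the lines from a shared time course, and the arrays of a day also shared a column of their slide, which cannot be told apart from day. The values after ± are standard errors of that model, adjusted p-values are Benjamini-Hochberg over the 23594 genes, and a gene that passed has an adjusted p under 0.05. Because the tissue is measured in bulk, fewer cells of a type and less RNA per cell cannot be told apart.

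The clustered protocadherins rose, and the classical cadherins went both ways. From DD10 to DD16, 13 of the 28 clustered protocadherins rose and 0 fell, with a median difference of 0.40, while 6 of the 15 classical cadherins rose and 3 fell, with a median of 0.34. In that step 40.7% of all genes passed, 21.9% higher and 18.8% lower, with a median of 0.03. From DD16 to DD23, 19 of 28 clustered protocadherins rose and 0 fell, with a median of 0.59, while 1 of 15 classical cadherins rose and 4 fell, with a median of -0.20. The background of that step was 41.2% of genes, 19.3% higher and 21.9% lower, with a median of 0.01. Over the whole course 22 of 28 clustered protocadherins were higher at DD23 than at DD10 and 0 were lower (median 0.87), against 6 higher and 3 lower of the classical cadherins (median 0.34) and 60.7% of all genes, 31.6% higher and 29.2% lower. Pcdha4, counted in both rises to DD23, passed the filter only through its DD23 arrays, where it was high. With probes well above background on all 9 arrays, 8 of 18 clustered protocadherins rose from DD10 to DD16 and 0 fell, with 48.5% of all genes. From DD16 to DD23, 13 of those 18 rose and 0 fell, with 49.6% of all genes. Over the whole course 17 of those 18 rose and 0 fell, with 67.5% of all genes.

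The later step showed the same side in each line. Of the 28 clustered protocadherins, 27 were higher at DD23 than at DD16 in WT, 26 in Isl1KO and 28 in B4KO, with medians of 0.62, 0.45 and 0.46. Of all 23594 genes, 12066, 11638 and 11726 were higher in these lines, in that order. The counts moved with single arrays. By DD16, 8 clustered protocadherins passed without the Isl1KO array of DD16, with 25.1% of all genes. From DD16 to DD23, 8 passed without the WT array of DD16, 9 without the WT array of DD23 and 12 without the Isl1KO array of DD23. In that order 27.8%, 30.1% and 27.7% of all genes passed. The clustered protocadherins had 0 lower in each of these fits. Without the Isl1KO array of DD10, 10 of them rose and 1, Pcdhb22, fell by DD16, with 25% of all genes. Over the whole course 20 rose and 1, again Pcdhb22, fell without that array, with 52.2% of all genes. Under quantile normalization 12 rose and 1, Pcdhgb1, fell by DD16, with 39.2% of all genes. Of the classical cadherins 3 rose and 1 fell by DD16 without the Isl1KO array of DD10, 4 rose and 1 fell without that of DD16, and 2 fell in the later step without that of DD23. For these the shares of all genes were 25%, 25.1% and 27.7%. In the later step 3 classical cadherins rose without the B4KO array of DD23, Cdh9 and Cdh18 beside Cdh20, with 33.7% of all genes. The classical cadherins had medians of 0.27, -0.27 and -0.36 in the same order, so WT stood apart from the knockouts in sign. The earlier step depends on the scale of the arrays: 8 control RNAs spiked into each sample and well above background on all arrays were 0.51 higher in the median at DD16 than at DD10 on this scale (from 0.11 to 0.57). When each array was scaled to them, an alternative chosen after seeing the data, the median of all genes moved to -0.47 in that step, 66.6% of all genes passed, 7 clustered protocadherins rose and 6 fell, and the members as a whole went from 22 higher and 5 lower to 9 higher and 20 lower. In the later step the spike-ins moved by -0.07 in the median, and 19 clustered protocadherins rose and 0 fell on that scale too, with 39.9% of all genes. Over the whole course 15 rose and 1 fell on it, with 66.6% of all genes.

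**Figure D1:**
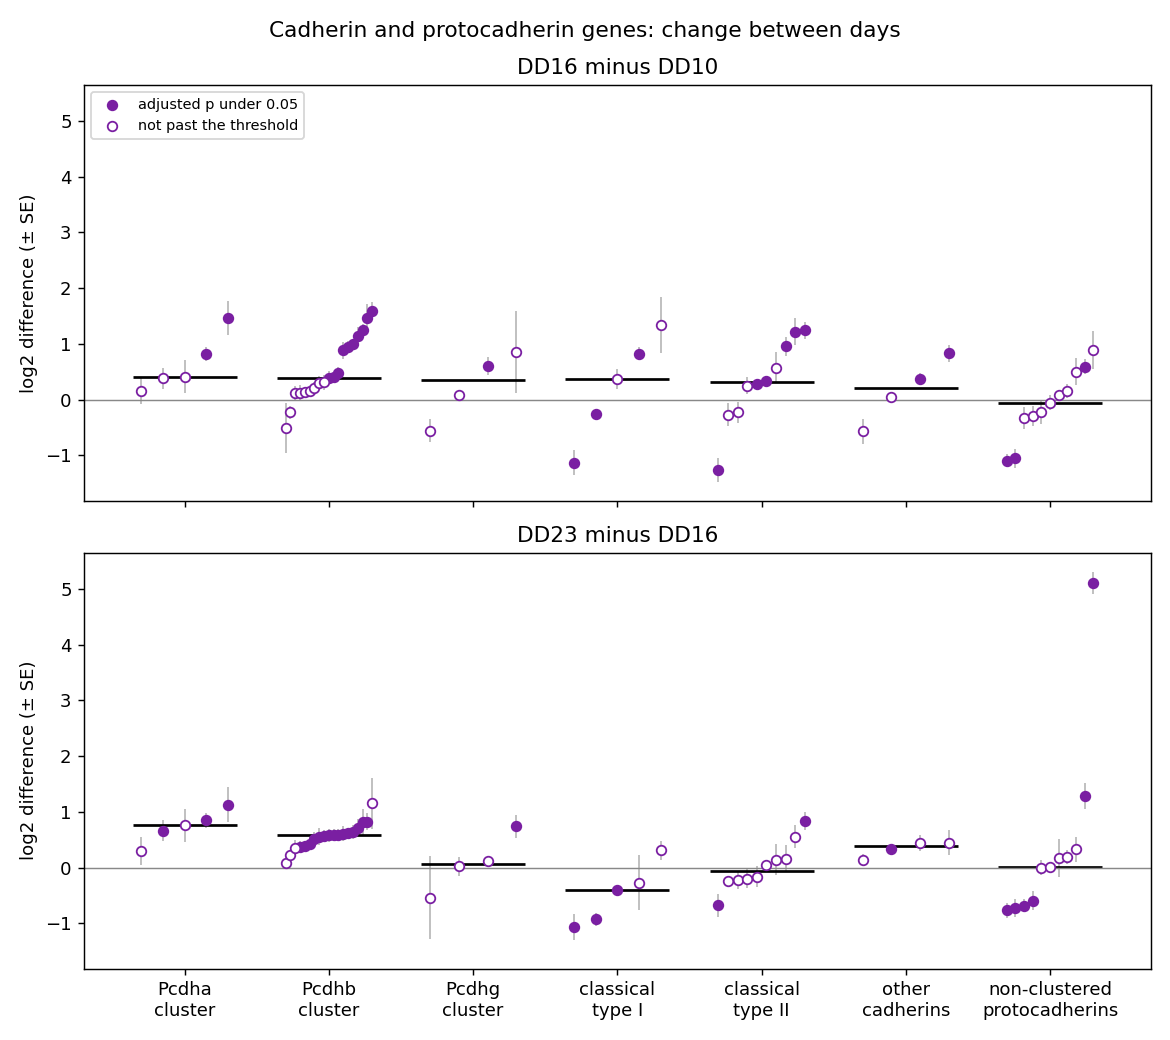
Fitted log2 difference of each of the 58 genes between days, with bars of ± 1 standard error (3 arrays a day), grouped by class, with filled points for an adjusted p under 0.05 and black bars for the class median. In the lower panel the beta cluster lies above 0 as a whole, the type I classical cadherins lie mostly below it, and Pcdh15 stands apart at 5.11.

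In the beta cluster the genes that passed were all higher on the later day. Of its 19 measured genes 10 rose by DD16 and 15 rose from DD16 to DD23, and 17 were higher at DD23 than at DD10. Of all genes 21.9%, 19.3% and 31.6% passed as higher in these comparisons. In the later step all 19 were higher at DD23 in each of the 3 lines. Pcdhb5, 1 of the 19, passed the filter only through its DD23 arrays, so its side in that step was set by the filter. Pcdhb10 was above background on all 9 arrays. Its level in WT, Isl1KO and B4KO was -3.88, -4.49 and -3.91 at DD10, -2.17, -2.82 and -2.50 at DD16, and -1.63, -1.65 and -1.73 at DD23. The values of the days did not overlap, and the rise was 1.60 ± 0.15 by DD16 (limma adjusted p = 0.00124) and 0.82 ± 0.15 more by DD23 (limma adjusted p = 0.00809). Pcdhb15 was at -3.53, -3.80 and -3.33 at DD10, at -2.36, -2.32 and -2.23 at DD16, and at -1.70, -1.72 and -1.72 at DD23. The lines lay closest together at DD23, and the rises were 1.25 ± 0.11 and 0.59 ± 0.11 (limma adjusted p = 0.000935 and 0.00754). Pcdhb13 was at -5.05, -5.87 and -5.07 at DD10, when it was well above background on no array, then at -3.78, -3.67 and -4.14 at DD16 and -2.60, -3.40 and -3.15 at DD23. Because the DD10 signal was only a bound, Pcdhb13 was at least 2.01-fold higher at DD16 and at least 3.53-fold higher at DD23, the dim side being taken at the lowest signal well above background on its array. Pcdhb11 and Pcdhb19 were likewise not well above background at DD10, and by DD23 the bounds on their rise were at least 3.04-fold for Pcdhb11 and at least 2.13-fold for Pcdhb19. With Pcdhb13 they count among the 10 rises by DD16, and they passed the filter only through later arrays, where they were high.

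Rises by DD16 were uneven along the cluster. The 10 measured genes from Pcdhb10 to Pcdhb19 had a median of 0.97 (0.22 to 1.60), the 6 from Pcdhb2 to Pcdhb7 a median of 0.15 (-0.51 to 0.39) and the 3 from Pcdhb20 to Pcdhb22 a median of 0.12 (-0.23 to 0.31). This split was made after the values were seen and has no test. In the middle span, Pcdhb11, Pcdhb13 and Pcdhb19 were well above background on no DD10 array and passed the filter only through later arrays, where they were high. Their differences by DD16 were thus not between measured levels. From DD16 to DD23 the same spans had medians of 0.59, 0.51 and 0.35. Pcdhb12 stood out within the middle span, with 0.22 ± 0.10 by DD16 (limma adjusted p = 0.135). Pcdhb5 and Pcdhb22 had negative differences by DD16. Pcdhb5 was at -4.50, -5.54 and -5.44 at DD10, -6.28, -6.15 and -4.59 at DD16 and -4.24, -4.95 and -4.37 at DD23, and it was well above background only at DD23, so its difference by DD16, the lower end of the Pcdhb2 to Pcdhb7 range, was not one between measured levels. Pcdhb22 was at -0.52, -0.89 and -0.64 at DD10, -0.91, -0.83 and -0.999 at DD16 and -0.74, -0.79 and -0.97 at DD23. Its days overlapped, and it passed in neither step. On the spike-in scale, named here after their values were seen, Pcdhb6, Pcdhb17 and Pcdhb18 lost their rise by DD16, with -0.11, -0.10 and -0.03.

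**Figure D2:**
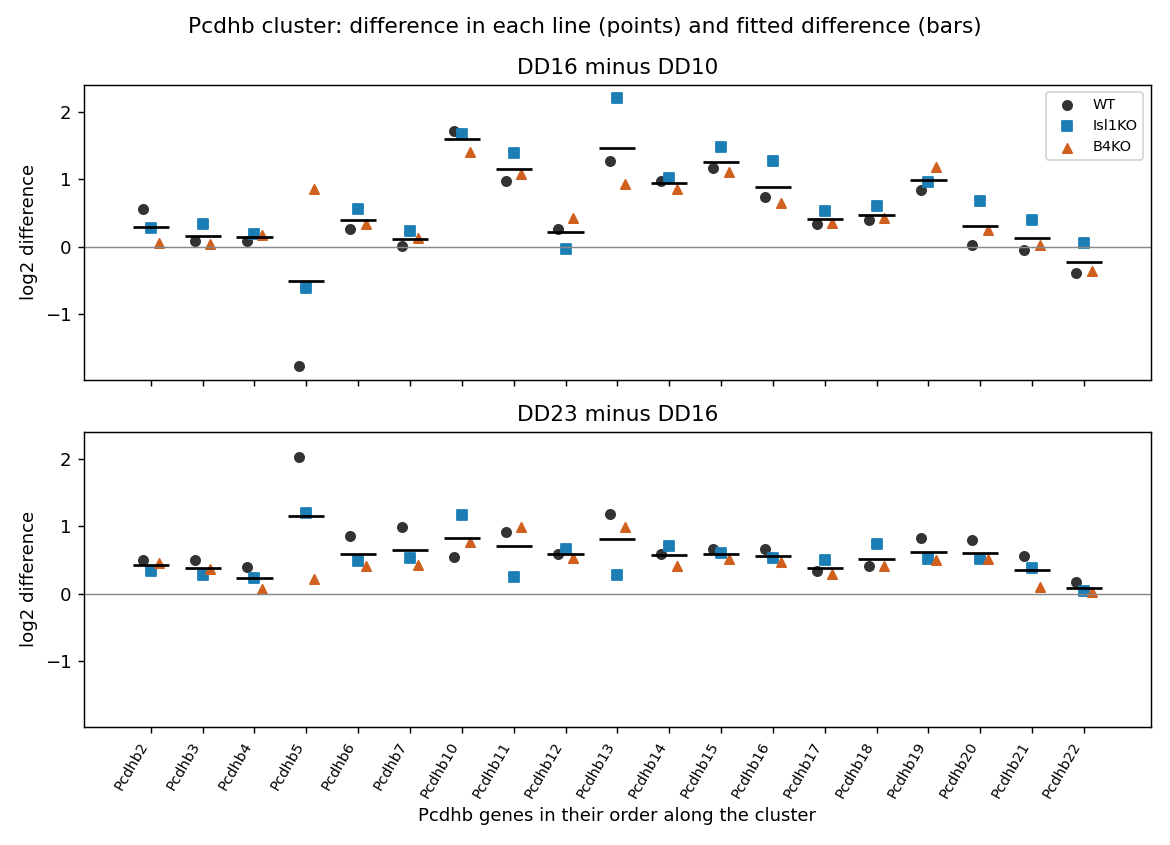
Log2 difference of each measured Pcdhb gene between days, in the order of the genes along the cluster, with a point for each line (1 array a day) and a bar for the fitted difference. In the lower panel every point is above 0, and in the upper panel the points from Pcdhb10 to Pcdhb19 reach highest.

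In the alpha cluster, beside 21.9% and 19.3% of all genes, 2 of 5 measured probes passed as higher by DD16 and 3 from DD16 to DD23. One of them in both steps, Pcdha4, was well above background on no array of DD10 or DD16 and passed the filter through its 3 arrays of DD23, where it was high, so its difference by DD16 was not one between measured levels. The probe named Pcdhac2 is listed for Pcdha4, Pcdha9, Pcdhac1 and Pcdhac2, so it reads a part that several alpha transcripts share. In WT, Isl1KO and B4KO its level was 0.27, -0.45 and -0.32 at DD10, 0.72, 0.57 and 0.65 at DD16, then 1.80, 1.41 and 1.27 at DD23. The days did not overlap, and it rose by 0.82 ± 0.13 and then by 0.84 ± 0.13 (limma adjusted p = 0.00605 and 0.00509). A second probe of Pcdhac2 gave 1.10 and 0.93. Pcdha4 was at -5.90, -6.53 and -7.02 at DD10, at -5.06, -5.32 and -4.67 at DD16, and at -3.17, -4.37 and -4.12 at DD23. At DD23 it was at least 1.70-fold higher than at DD16, and its probe is also listed for the gene model Gm37013. Pcdha8, whose probe is listed for Pcdha7 as well, rose from DD16 to DD23 by 0.66 ± 0.19 (limma adjusted p = 0.0342), and Pcdha12 and Pcdha9 had 0.76 ± 0.29 and 0.30 ± 0.24 and did not pass (limma adjusted p = 0.0854 and 0.373). Pcdhac1, a C-type member, was well above background on no array.

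In the gamma cluster, beside 21.9% and 19.3% of all genes, 1 of 4 measured probes passed as higher by DD16 and 1 from DD16 to DD23. The probe named Pcdhga9 is listed for Pcdhga1, Pcdhga5, Pcdhga6 and Pcdhga9 and so reads a shared part. Its level was 4.30, 4.13 and 4.08 at DD10, 4.23, 4.26 and 4.28 at DD16 and 4.42, 4.36 and 4.33 at DD23. The days overlapped, and the differences of 0.09 ± 0.08 and 0.11 ± 0.08 did not pass (limma adjusted p = 0.404 and 0.283). The gamma C-type gene Pcdhgc5 had a fitted difference of 0.60 ± 0.17 by DD16 (limma adjusted p = 0.032), but at DD10 and DD16 it was well above background on the Isl1KO arrays only, and the call was lost in 9 of 17 alternatives. Its level was -4.64, -4.30 and -6.43 at DD10 and -4.21, -3.92 and -5.43 at DD16, so the days overlapped across lines and B4KO lay lowest. Pcdhgb1 was well above background on 0 of 3 arrays at DD16 and on 3 of 3 at DD23, at least 1.12-fold higher, a call lost in 10 of 17 alternatives. Whether the change of the alpha and gamma probes differed was not tested.

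Among type I classical cadherins, Cdh2, the N-cadherin of neural epithelium, fell in both steps. It was at 4.64, 4.52 and 4.80 at DD10, at 4.34, 4.38 and 4.49 at DD16, and at 3.94, 3.92 and 4.12 at DD23 in WT, Isl1KO and B4KO. Each day lay wholly below the day before, and the falls were small, by 0.25 ± 0.07 and by 0.41 ± 0.07 (limma adjusted p = 0.0327 and 0.00652). The fall by DD16 did not pass in 12 of 18 alternatives, with adjusted p up to 0.188. Cdh3, the P-cadherin, known in the pigment epithelium of the eye, fell furthest. It was at -1.76, -1.45 and -1.19 at DD10, at -2.41, -2.93 and -2.45 at DD16, and at -4.06, -3.97 and -2.96 at DD23. WT and Isl1KO lay more than 1 log2 unit under their DD16 values and B4KO fell less. The fitted falls were by 1.13 ± 0.23 and by 1.06 ± 0.23 (limma adjusted p = 0.0124 and 0.014). Beside it, pigment epithelium markers fell, 5 of 6 by DD16 and 3 of 6 from DD16 to DD23, where 18.8% and 21.9% of all genes fell. The part of such cells in the change of Cdh3 was not tested.

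Cdh4, the R-cadherin, named for the retina, peaked at DD16. Its level was 1.91, 1.80 and 1.83 at DD10, 2.50, 2.95 and 2.57 at DD16 and 1.60, 1.81 and 1.82 at DD23. All 3 lines were highest at DD16, with a rise of 0.83 ± 0.12 and a fall by 0.93 ± 0.12 (limma adjusted p = 0.00463 and 0.00303). The other probes of Cdh4, including the calcium-turn probe printed above, gave 0.68 and 0.83 by DD16 and -0.78 and -0.67 after it. Cdh1, the E-cadherin of epithelia, was at -3.66, -4.45 and -4.70 at DD10, -3.89, -2.74 and -2.16 at DD16 and -3.17, -2.97 and -3.46 at DD23. It was higher at DD16 in both knockouts and not in WT, and no step passed (1.34 ± 0.50, limma adjusted p = 0.0778). Cdh15, the muscle cadherin, had 0.37 ± 0.18 and 0.31 ± 0.18 and passed in neither step. Its level ran from -5.21 to -3.85, and it was well above background on 4 of the 9 arrays, 3 of them Isl1KO.

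Type II cadherins, known for guiding the choice of layers and partners among neurons, gave 5 rises and 1 fall by DD16. Of all genes 21.9% rose and 18.8% fell in that step. Cdh6, which fell, is known in neural folds and in some direction-selective retinal neurons. Its level was 0.01, 0.58 and 0.70 at DD10, -0.90, -1.14 and -0.47 at DD16 and -1.32, -1.74 and -1.48 at DD23. The days did not overlap, and the falls were by 1.26 ± 0.21 and by 0.68 ± 0.21 (limma adjusted p = 0.00669 and 0.046), the later one lost in 9 of 18 alternatives. The tail probe of Cdh6 printed above gave -0.55 and -1.07 and another Cdh6 probe gave -1.77 and -1.05. The Cdh9 probe, which matches that tail at 50 of 60 bases, did not follow: it had -0.27 ± 0.20 and 0.56 ± 0.20 (limma adjusted p = 0.327 and 0.075), with levels from -5.13 to -3.92.

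Cdh22 rose early. It was at 0.23, -0.34 and -0.02 at DD10, at 1.13, 1.31 and 1.16 at DD16, and at 1.08, 1.02 and 0.80 at DD23. All DD16 values were above all DD10 values, with a rise of 1.24 ± 0.15 (limma adjusted p = 0.00265) and -0.23 ± 0.15 afterwards. Cdh20 rose late. It was at -0.63, 0.09 and 0.07 at DD10, at -0.08, 0.40 and -0.02 at DD16, and at 0.78, 0.91 and 1.11 at DD23. The DD23 values stood above all others, with 0.84 ± 0.16 from DD16 to DD23 (limma adjusted p = 0.00908), and Cdh20 was the 1 classical cadherin to rise in that step. Cdh18 was well above background on no array at DD10 and on all 3 at DD16, where it was at least 1.42-fold higher. Cdh10 passed as higher at DD16, but it was well above background on no DD10 array and on 1 DD16 array, so no fold is given. Cdh11, a mesenchymal cadherin also expressed in brain, rose by 0.34 ± 0.08 by DD16, and Cdh12 by 0.29 ± 0.08 (limma adjusted p = 0.0206 and 0.0363). The probe of Cdh11 is listed for 3 genes, with 2610005L07Rik and 6820431F20Rik beside Cdh11. On the spike-in scale Cdh11 and Cdh12 turned to -0.17 and -0.22, and Cdh12 kept its call in 6 of 18 alternatives. Cdh7 and Cdh8 passed in neither step, with 0.57 ± 0.28 and -0.23 ± 0.19 by DD16. Cdh24 and Cdh19 did not pass the filter, nor did Cdh5, the cadherin of vessels, which was well above background on 1 array.

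**Figure D3:**
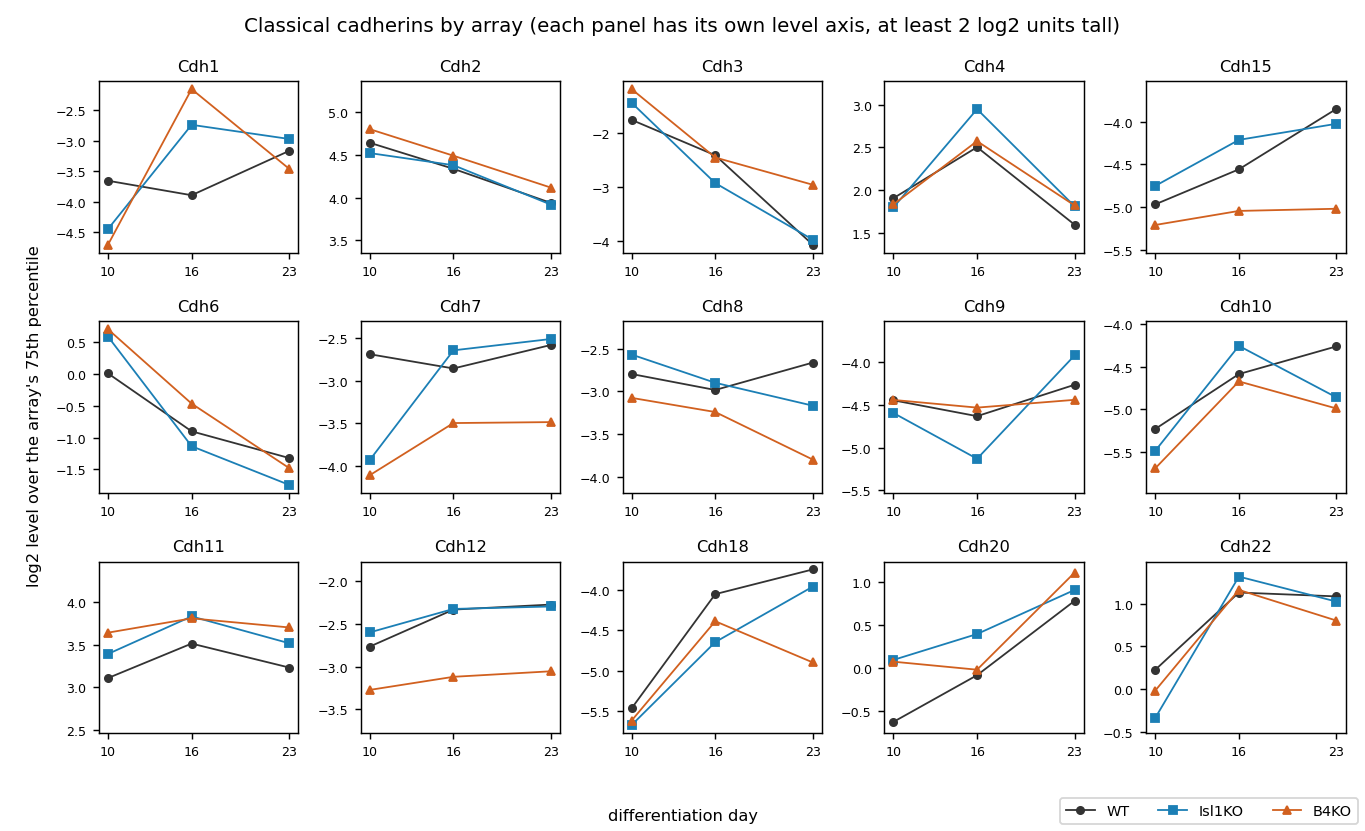
Log2 level of each measured classical cadherin by differentiation day, 1 point for each line and day, each panel with its own level axis. Cdh2, Cdh3 and Cdh6 decline through the days, Cdh4 peaks at DD16 and Cdh22 is higher from DD16 on.

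Of the other cadherins, Cdh13, which is tethered by a lipid anchor and lacks the tail that binds catenins, rose. Its level was 0.75, 0.24 and 0.59 at DD10, 1.31, 1.27 and 1.49 at DD16 and 1.68, 1.93 and 1.79 at DD23. The days did not overlap, and the rise was 0.83 ± 0.15 by DD16 (limma adjusted p = 0.00805), with 0.44 ± 0.15 after it (limma adjusted p = 0.0557). A pair of further Cdh13 probes gave 0.78 and 0.73 by DD16. Cdh16, the kidney cadherin, rose by 0.37 ± 0.10 by DD16 (limma adjusted p = 0.0318), a call kept in 8 of 18 alternatives and turned to -0.13 on the spike-in scale. Cdh26 rose by 0.33 ± 0.08 from DD16 to DD23 (limma adjusted p = 0.021). Cdh17, known in the gut, passed in no step, and Cdh23, the tip-link partner of Pcdh15, was well above background on 2 arrays and was not tested.

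Non-clustered protocadherins, each coded by a gene of its own, held the largest change of all members. Pcdh15, known as a strand of the tip link of hair cells and for its place at the outer segment base of photoreceptors, rose between DD16 and DD23. Its level was -3.58, -3.93 and -4.56 at DD10, -4.41, -4.07 and -4.57 at DD16, then 0.90, 1.28 and 0.09 at DD23, each time for WT, Isl1KO and B4KO. All DD23 values stood more than 3 log2 units above every earlier value, and the log2 difference from DD16 was 5.11 ± 0.20 (limma adjusted p = 0.000479). At DD16 the WT and B4KO signals were not well above background, so no fold is given, and the difference was 3.71 with the mean over the probes of the gene and 3.84 with normexp background correction. On the processed signal, dim values included, Pcdh15 was also the 1 member that was 2-fold or more higher in all 3 lines in that step, as 3.74% of all genes were. On the same count 0 members were lower by as much, as 1.95% were. In the step before it, Cdh18, Pcdhb10 and Pcdhb15 were higher by that much in all lines and 0 were lower, against 4.09% and 2.59% of all genes. Cdh18 was well above background on no DD10 array, so its count there was not one between measured levels. The probes of the gene did not move alike. The distal probe printed above gave 3.44 from DD16 to DD23, with -4.39, -4.52 and -5.37 at DD16 and -1.32, -0.85 and -1.80 at DD23. The proximal probe, whose last letters are those of a stop codon, gave 0.77, with -3.70, -3.69 and -4.72 at DD16 and -2.92, -2.85 and -4.04 at DD23. Both were higher at DD23 in each line, and the rise at the proximal probe was the smaller in each line. Whether those probes differ beyond their error was not tested.

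Pcdh8, a delta2 protocadherin that can remove adhesion molecules from the surface of neurons, also rose late. It was at -0.43, -1.32 and -1.14 at DD10, at -0.54, -0.24 and -0.60 at DD16, and at 1.08, 1.03 and 0.35 at DD23. Its DD23 values stood above all others, by 1.28 ± 0.24 over DD16 (limma adjusted p = 0.00826), and a second probe gave 1.32. Pcdh17, which recruits regulators of actin along axons, rose by DD16 by 0.59 ± 0.13 (limma adjusted p = 0.0148; 0.09 on the spike-in scale, where it did not pass). The genes that fell were Pcdh18 and Pcdh20 in both steps and Pcdh7 and Pcdh19 in the later one. Pcdh18 was at 1.98, 1.67 and 1.80 at DD10, at 0.67, 0.83 and 0.64 at DD16, and at 0.12, -0.15 and 0.11 at DD23. Its days did not overlap, and it fell by 1.10 ± 0.12 and by 0.69 ± 0.12 (limma adjusted p = 0.00176 and 0.00648). Pcdh20 was at -0.31, -0.80 and -0.81 at DD10, at -1.82, -1.48 and -1.79 at DD16, and at -2.51, -2.39 and -2.38 at DD23. It fell in the same manner, by 1.05 ± 0.17 and by 0.73 ± 0.17 (limma adjusted p = 0.00569 and 0.0169).

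Pcdh7 had -0.06 ± 0.13 by DD16 and then fell by 0.77 ± 0.13 (limma adjusted p = 0.00691), from 0.10, 0.21 and 0.10 to -0.50, -0.74 and -0.66. Its other probes gave -0.86 and -1.04 in that step, and 0.18 and -1.88 in the earlier one, in which they disagreed. Pcdh19, an X-linked gene known for a form of epilepsy, fell by 0.59 ± 0.17 (limma adjusted p = 0.0374, lost in 11 of 18 alternatives), from 1.08, 1.38 and 1.08 to 0.89, 0.35 and 0.52. Pcdh10 passed in neither step by its brightest probe (0.16 ± 0.12 and 0.19 ± 0.12), and its other probes above background gave 0.80, 0.51 and 0.72 by DD16 and 0.04, 1.10 and 0.75 after it. Pcdh1, Pcdh9 and Pcdh11x passed in neither step. Pcdh12, known in vessels, was well above background on 1 array.

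**Figure D4:**
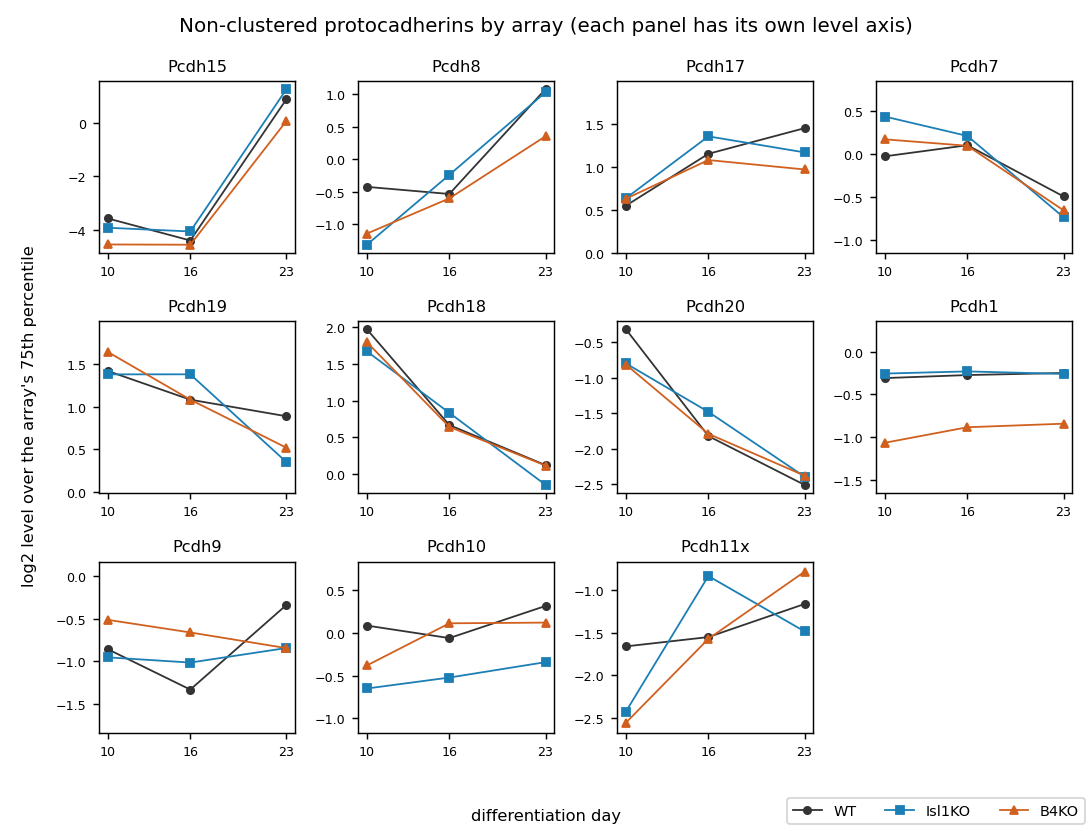
Log2 level of each measured non-clustered protocadherin by differentiation day, 1 point for each line and day, each panel with its own level axis. Pcdh15 is flat to DD16 and reaches 0.09 to 1.28 at DD23, Pcdh18 and Pcdh20 decline through the days, and B4KO lies apart for Pcdh1.

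Genes that act with these proteins were taken from lists on the same scale and tests. Beside each count below, 40.7% of all genes passed by DD16, 21.9% higher and 18.8% lower. From DD16 to DD23 it was 41.2%, 19.3% higher and 21.9% lower. Of 8 catenins, which link cadherins to actin, 1 rose and 2 fell by DD16 and 0 rose and 4 fell from DD16 to DD23. Ctnnb1, the beta-catenin that binds the cadherin tail, fell by 0.60 ± 0.07 and by 0.50 ± 0.07 (limma adjusted p = 0.00214 and 0.00326). Ctnna1 and Ctnnd1 fell in the later step, by 0.42 ± 0.10 and by 0.40 ± 0.09. Jup rose by 0.57 ± 0.08 by DD16, and Arvcf fell by 0.38 ± 0.10. Of 17 other junction partners, 1 rose and 8 fell by DD16 and 2 rose and 7 fell after it. Crb1, a polarity gene of photoreceptors, rose by 2.71 ± 0.39 by DD16 and Crb2 fell by 1.30 ± 0.09 after it. Of 6 repressors of cadherin genes 1 rose and 3 fell by DD16, and 0 rose and 3 fell after it. Among the 6, Twist2 was well above background only on the DD16 arrays and Snai1 only on the DD10 arrays, so the filter favoured the side of each by DD16. Snai2 fell in both steps, by 1.91 ± 0.21 and by 1.17 ± 0.21.

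Of 18 genes that regulate the protocadherin clusters, through the CTCF and cohesin loops or through methylation and silencing, 1 rose and 8 fell by DD16, and 1 rose and 10 fell from DD16 to DD23. Of all genes 40.7% and 41.2% passed in these steps, 18.8% and 21.9% as lower. Dnmt3b, a methyltransferase known to act on protocadherin promoters in early development, fell by 1.10 ± 0.19 and by 1.55 ± 0.19 (limma adjusted p = 0.00792 and 0.00264). Dnmt3a rose by 0.68 ± 0.15 and then by 0.73 ± 0.15 (limma adjusted p = 0.0168 and 0.0123). Ctcf fell by 0.32 ± 0.08 by DD16 (limma adjusted p = 0.0293) and had -0.11 ± 0.08 after it. Smchd1, a silencer of the clusters, fell by 0.36 ± 0.08 in the later step (limma adjusted p = 0.0147), and Rest fell by 0.74 ± 0.09 and by 0.64 ± 0.09. Of 14 genes that signal downstream of protocadherins 4 rose and 0 fell by DD16, among them Ptk2b, which was not well above background at DD10 and was at least 2.63-fold higher at DD16, and 2 rose and 6 fell after it. Of 19 distant cadherin relatives 3 rose and 3 fell by DD16 and 4 rose and 7 fell after it. Among them Cdhr1, a cadherin of photoreceptor outer segments, rose by 5.80 ± 0.23 and by 1.89 ± 0.23 (limma adjusted p = 0.000169 and 0.00258).

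The cell types that could move with these genes were followed by marker lists. From DD16 to DD23, 41.2% of all genes passed, 19.3% higher and 21.9% lower. The summed level of 8 photoreceptor markers, as log2 of the sum, was 0.65 to 1.67 over the 3 arrays of DD10, 5.12 to 5.28 at DD16 and 7.52 to 7.87 at DD23, and all 8 rose from DD16 to DD23. Rcvrn, 1 of the 8, was well above background only on its DD23 arrays, so its side in that step was set by the filter. Of 8 amacrine markers 5 rose and 1 fell in that step (3.67 to 3.81 at DD16 and 4.62 to 4.92 at DD23). Of 6 bipolar cell markers, the type the study set out to reduce, 5 rose and 1 fell (6.59 to 6.68, then 7.35 to 7.46). The bipolar sum was already at 6.42 to 6.68 at DD10, and Grm6 and Vsx1 of that list did not pass the filter. Which cells carried that sum was not tested. Of 8 retinal progenitor markers 0 rose and 7 fell (7.34 to 7.41, then 6.49 to 6.81). Of 4 Schwann and neural crest markers 2 rose and 1 fell, and their sum was 0.26 to 0.48 at DD16 and 1.69 to 2.52 at DD23. The median difference of the 4 in that step was -0.15, and Tfap2a among them is on the amacrine list too. Forebrain markers were at 3.89 to 5.05 at DD10 and 0.95 to 1.80 at DD23. The endothelial sum was led by Kdr, which retinal progenitors also express, while Pecam1 stayed between -4.03 and -2.21. The part of these cell types in the changes of the cadherins and protocadherins was not tested.

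Between B4KO and WT, 10 of the 58 members passed, 1 higher and 9 lower, where 22% of all genes passed, 3.99% higher and 18% lower. The lower genes were Cdh12, Cdh16, Cdh17, Cdh26, Pcdh1, Pcdhb11, Pcdhb12, Pcdhb19 and Pcdhgc5, and the higher one was Cdh11. Of these calls Pcdhb11 held in 3 of 16 alternatives, Pcdhb19 in 2 of 16 and Cdh11 in 12 of 17, and the other 7 held in each alternative that tested them. Cdh17 was well above background on 1 WT array and no B4KO array. Cdh26 was at 0.19, 0.33 and 0.75 in B4KO on DD10, DD16 and DD23, at 1.34, 1.32 and 1.59 in WT, and at 1.30, 1.33 and 1.64 in Isl1KO. B4KO lay below both other lines on each day, by 0.99 ± 0.08 under WT (limma adjusted p = 0.000721). Pcdh1, which is known in epithelia and vessels, was at -1.06, -0.88 and -0.84 in B4KO and between -0.31 and -0.23 on the other 6 arrays. The difference from WT was -0.65 ± 0.07 (limma adjusted p = 0.00195). Pcdhgc5 was well above background on no B4KO array, 1 WT array and 3 Isl1KO arrays, so no fold between B4KO and WT is given. Cdh11 was at 3.64, 3.81 and 3.70 in B4KO and at 3.11, 3.51 and 3.23 in WT, by 0.43 ± 0.08 higher (limma adjusted p = 0.0131), and Isl1KO was above WT by 0.28, 0.32 and 0.28. That probe is also listed for 2610005L07Rik and 6820431F20Rik, and their part in its signal was not tested. The second Cdh11 probe gave 0.66, and on the spike-in scale the difference of Cdh11 was 0.32 and did not pass (limma adjusted p = 0.0618).

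B4KO was hybridised alone on 1 slide, and WT and Isl1KO shared the other, so slide and B4KO cannot be told apart. Of the 8 spike-ins above background, the dimmest was lower on the B4KO slide, at -4.53, -4.27 and -4.21 against -3.80 to -3.18 on the other 6 arrays, a difference from WT of -0.77. The other 7 differed from WT by 0.01 to 0.23, and between Isl1KO and WT the 8 differed by 0.02 to 0.09. The part of the slide in the lower values of B4KO was not tested. Between Isl1KO and B4KO 12 members passed, 9 higher and 3 lower, where 21.9% of all genes did (18.1% higher and 3.8% lower), with the same slides against each other. Cdh15, Cdh17 and Pcdhgc5, among those 9, were well above background on no B4KO array and passed the filter through the 3 Isl1KO arrays, where they were high. With probes above background on all 9 arrays 5 were higher and 3 lower of 41 members, with 22.6% of all genes.

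**Figure D5:**
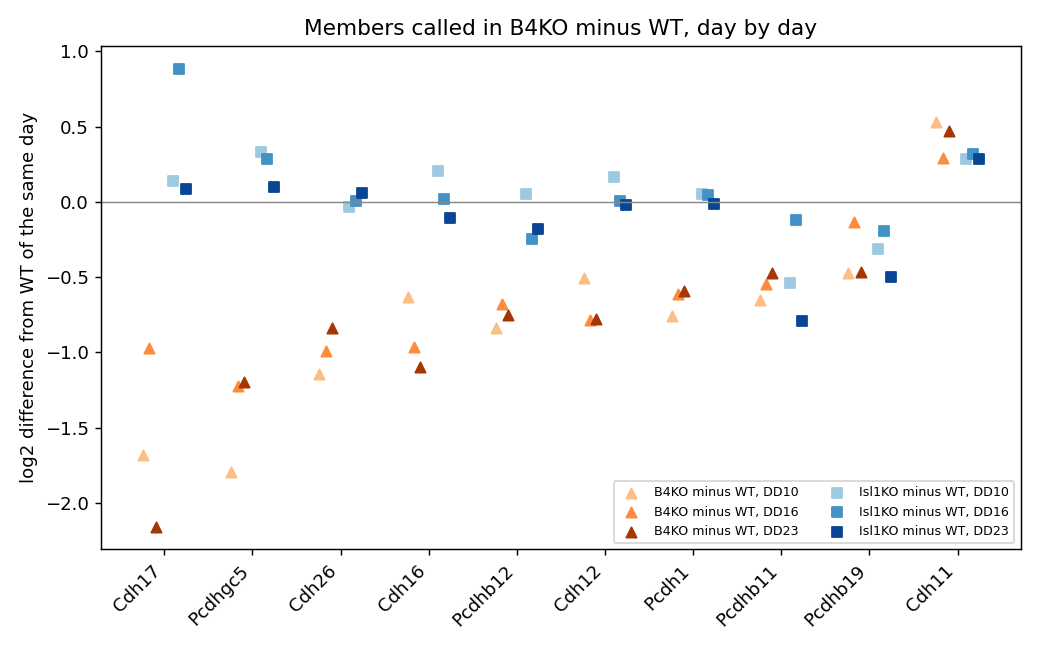
Log2 difference from WT of the same day for the 10 members that passed between B4KO and WT, with triangles for B4KO and squares for Isl1KO, darker with later day, each point 1 array against 1 array. B4KO lies below 0 on all days for 9 genes, and Isl1KO stays near 0 for Pcdh1, Cdh26 and Cdh12.

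Between Isl1KO and WT, which shared a slide, 0 of 58 members passed by limma, as 0.00424% of all genes, or 1 gene, did. At an unadjusted p under 0.05, 8.15% of all genes passed. The clustered protocadherins were lower in Isl1KO than in WT in 25 of 28 genes by the fitted difference, with a median of -0.35 against 0.01 over all genes. Day by day the median was -0.42 at DD10, -0.10 at DD16 and -0.34 at DD23. On all 3 days 15 of the 28 were lower and 1 was higher, where 31.7% of all genes kept to 1 side, and in B4KO 13 were lower and 1 higher, where 57.5% did. The genes share the 6 arrays compared, so the count is not a test. Beside it, ganglion cell markers had a median of -0.86 and pigment epithelium markers of -0.54 between Isl1KO and WT, with 0 of 8 and 0 of 6 passing, and their part in the shift was not tested. Pcdhb3, named after its values were seen, was at -2.52, -2.18 and -1.90 in Isl1KO and at -1.92, -1.84 and -1.35 in WT, a difference of -0.49 ± 0.09 (limma adjusted p = 0.333). Pcdh10 had the same order, with -0.62 ± 0.12 (limma adjusted p = 0.366). With no filter on dim probes, Cdh19, Pcdh10, Pcdhb3, Pcdhb9 and Pcdhga12 passed as lower, with 12.2% of all genes.

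Whether a knockout's difference from WT at DD23 departed from that at DD10 and DD16 was tested in a model with 2 residual degrees of freedom. By limma 0 members passed for either knockout, with 0% of all genes, and at an unadjusted p under 0.05 the model called 4 members for B4KO (Cdh8, Cdh15, Cdh18 and Pcdh9) and 3 for Isl1KO (Cdh8, Pcdha9 and Pcdhb10), beside 6.06% and 4.92% of all genes.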

How the data were processed

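RNA of 9 samples was hybridised to single-colour Agilent arrays. The authors deposited scanner files whose processed intensity was background-subtracted in Agilent's scanner software, Feature Extraction version 12.0.3.1 as the submitters' processing notes name it, and per the file headers they carry probe positions of build mm9 and 0 or 1 flags (a score of 1 for well above background). The deposited value table, which held the ratio of that intensity to 1 constant for each array, served as an alternative. The ratio was checked to within 1% only on gene spots with a deposited value above 1. These were 15500 to 15540 of the 59305 gene spots of an array, and dimmer spots were not checked. The aligner and gene models behind the probes are not given in the sources used here.

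Of 56605 gene probes, 102 with outlier flags were left out, and spots of a probe were averaged. Log2 intensity minus that of the array's 75th percentile was used, with, for each gene, the brightest probe flagged above background on 3 or more arrays. RefSeq accessions (GRCm38.p6 table, names only) named 32926 probes, and 23577 kept the file's name. Line and day were additive terms in limma 3.58.1 (R 4.3.3, 4 residual and 2.01 prior degrees of freedom), with Benjamini-Hochberg adjustment at 0.05. With 1 array per line and day, the spread holds the interaction of line and day, and p-values measure only the spread between these samples, which may be technical. How many arrays there are bounds the precision. The scripts were tested on simulated data. A fold against a group well above background on no array is a lower bound. Alternatives were quantile normalization, normexp (offset 50), other dim filters, the mean over probes, a trended prior, dim values raised to the array's lowest signal above background, leaving out probes shared by members, only the slide of WT and Isl1KO, and leaving out each array. The spike-in scale and the deposited table were added after seeing the data. Named genes were the classical, other and non-clustered members, of each protocadherin cluster its C-type genes with, per comparison, the 3 that rose most and the 3 that fell most, and of each partner list the 2 largest rises and falls that passed, with a few set partners such as Ctnnb1 and Ctcf. A few others are marked as named after their values were seen. Members and lists were chosen with earlier results of these data known.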

Additional observations from a re-analysis of the deposited data

How the results depend on the processing

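Of 2142 repeats of the single-gene calls, over all alternatives but the dim-value and shared-probe ones, which were run on class medians only, 1817 kept direction and call, 316 kept direction without the call and 9 changed sign. Of the calls, 10 of 27 by DD16, 12 of 31 from DD16 to DD23 28 of 42 over the whole course, 7 of 10 between B4KO and WT and 8 of 12 between Isl1KO and B4KO held in each of those alternatives that tested the gene. All 9 sign changes came on the spike-in scale: by DD16, Cdh11 (-0.17), Cdh12 (-0.22), Cdh16 (-0.13), Pcdhb6 (-0.11), Pcdhb17 (-0.10) and Pcdhb18 (-0.030), and over the whole course Cdh12 (-0.10), Cdh26 (-0.054) and Pcdhb4 (-0.058). On that scale the median of clustered protocadherins was -0.11 by DD16 and 0.43 over the whole course, and that of classical cadherins -0.17 and -0.10. With the slide of WT and Isl1KO alone, 14 members passed by DD16 and 16 from DD16 to DD23, with 20.8% and 28% of all genes and fewer arrays, and the classical median of that step was 0.026. With normexp the clustered median was 0.38 from DD16 to DD23 and 0.69 over the whole course. Over the whole course it was 0.77 with no dim filter, 0.95 with probes well above background on all 9 arrays and 0.79 without probes listed for several genes. With probes above background on all arrays the classical median of the whole course was -0.000245. Without a dim filter 5 members passed between Isl1KO and WT. Leaving out each array in turn gave 16 to 25 members by DD16 (16 without Isl1KO at DD16), 17 to 30 from DD16 to DD23 (17 without WT at DD16, 19 without Isl1KO at DD23 and 20 without WT at DD23), 38 to 44 over the whole course (25% to 38.5%, 27.6% to 39.6% and 51% to 59.5% of all genes) and a clustered median of 0.82 to 0.99 over it. The cause of these shifts was not tested. Days were compared within lines, with line as a term of the model, and no pairing by replicate number could be made, since the labels give none. Signal over background limits the alpha and gamma clusters most, since 5 of their 14 members had no array or 1 array well above background.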

Other observations

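Pcdhga1 was at -1.32 on the WT array of DD16 and between -4.50 and -3.59 on the other 8 arrays, and its fitted differences passed in no comparison (limma adjusted p = 0.387 by DD16). A probe of Cdh10 that was left out as dimmer was at -1.62 on the Isl1KO array of DD16 and between -7.63 and -6.41 on the other 8. Single arrays of this kind had no replicate.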
